A study of Mus musculus with 12 samples.

Results

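The genes described are 10 components of the Notch pathway, taken by symbol from a table of raw read counts with 23337 gene rows: the ligand genes Jag1, Jag2 and Dll1, the receptor genes Notch1, Notch2 and Notch3, the nuclear partners Rbpj and Maml1, and the target genes Hes1 and Hey1. All 10 symbols had a row, and 9 of them, all but Hey1, passed the filter on low counts that left 12406 genes for testing. The cells were NU1, a mouse urothelial line that became immortal on its own during serial passaging. It was grown in a medium with serum and epidermal growth factor, and knocked down with a lentiviral short hairpin RNA. The hairpin was either shNT (control, genotype labelled WT) or sh4 (directed at Stag2, genotype labelled Stag2-KD), and each was sequenced in proliferating cells and in quiescent cells, which makes 4 groups of 3 libraries. STAG2 belongs to cohesin, a ring-shaped protein complex known for pairing sister chromatids and for forming chromatin loops. Quiescent cells had been grown to confluence in the same medium and then held with 1 µM rosiglitazone, an agonist of PPAR-gamma, and 0.5 µM erlotinib, an inhibitor of the EGF receptor kinase. The labels call these libraries quiescent, differentiation day 7. Every group therefore carried a hairpin vector, the control and knockdown cells differ by 1 hairpin each, and confluence, both drugs and time in culture differ together between the states. The effects of those 4 factors cannot be told apart.

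Notch signalling runs between touching cells. A ligand of the Jagged or Delta family on one cell binds a Notch receptor on its neighbour, and the receptor is then cut first by an ADAM protease and next by the gamma-secretase complex. The freed intracellular domain enters the nucleus, joins the DNA-binding protein RBPJ and a co-activator of the Mastermind family, MAML1 among them, and switches on target genes such as those of the HES and HEY repressors. In layered epithelia the pathway is known for its part in the choice between basal proliferation and differentiation, and genes of the pathway are recurrently altered in bladder cancer.

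Each library is named by its experiment, 5, 7 or 9, and each experiment contributed 1 library to each group. Total counts ran from 14524429 to 21987539 per library. Stag2 itself was at 132.5 ± 17.4 CPM (counts scaled to library totals, with TMM factors; SD, n = 3) in proliferating control cells and at 27.6 ± 4.96 in proliferating knockdown cells, and at 120.5 ± 11.3 and 12.1 ± 2.95 in the quiescent pair. Of 14 urothelial and epithelial markers, 7 were above 1 CPM in all 12 libraries (keratins 7, 8, 18, 19 and 20, Epcam and Cdh1). Trp63, a basal cell regulator, had no count, and Upk3a, a uroplakin of the surface layer, had 1 count in all. All 5 endothelial, 6 fibroblast and 4 smooth muscle markers were near 0, with summed levels of at most 0.239, 2.22 and 0.716 CPM, and of the leukocyte markers described here Csf1r alone was above 1 CPM. The 7 proliferation markers all fell in the quiescent cells of both hairpins, Mki67 from 185 to 225 CPM in proliferating controls to 0.551 to 7.93 CPM in quiescent controls.

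In quiescent control cells, transcripts of the receptor Notch3 rose 2.85-fold over proliferating controls, while those of the ligands Jag1 and Jag2 and of the DNA-binding partner Rbpj fell, with Rbpj 2.27-fold lower. Notch1, Notch2, Hes1 and Maml1 did not pass the test. In the knockdown cells the same comparison of states passed for Jag2 and Rbpj, both lower. Notch3 was 2.14-fold higher there, without overlap, and passed once the experiment was entered as a block. With that block Dll1 also passed, higher in quiescent cells of both hairpins. Between hairpins no member passed the edgeR quasi-likelihood test in either state. The member with the largest difference was Jag1 in quiescent cells, 2.04-fold higher with the Stag2 hairpin, which passed once the experiment was entered as a block. In these bulk samples, fewer cells carrying a transcript and less transcript per cell cannot be told apart.

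**Figure D1:**
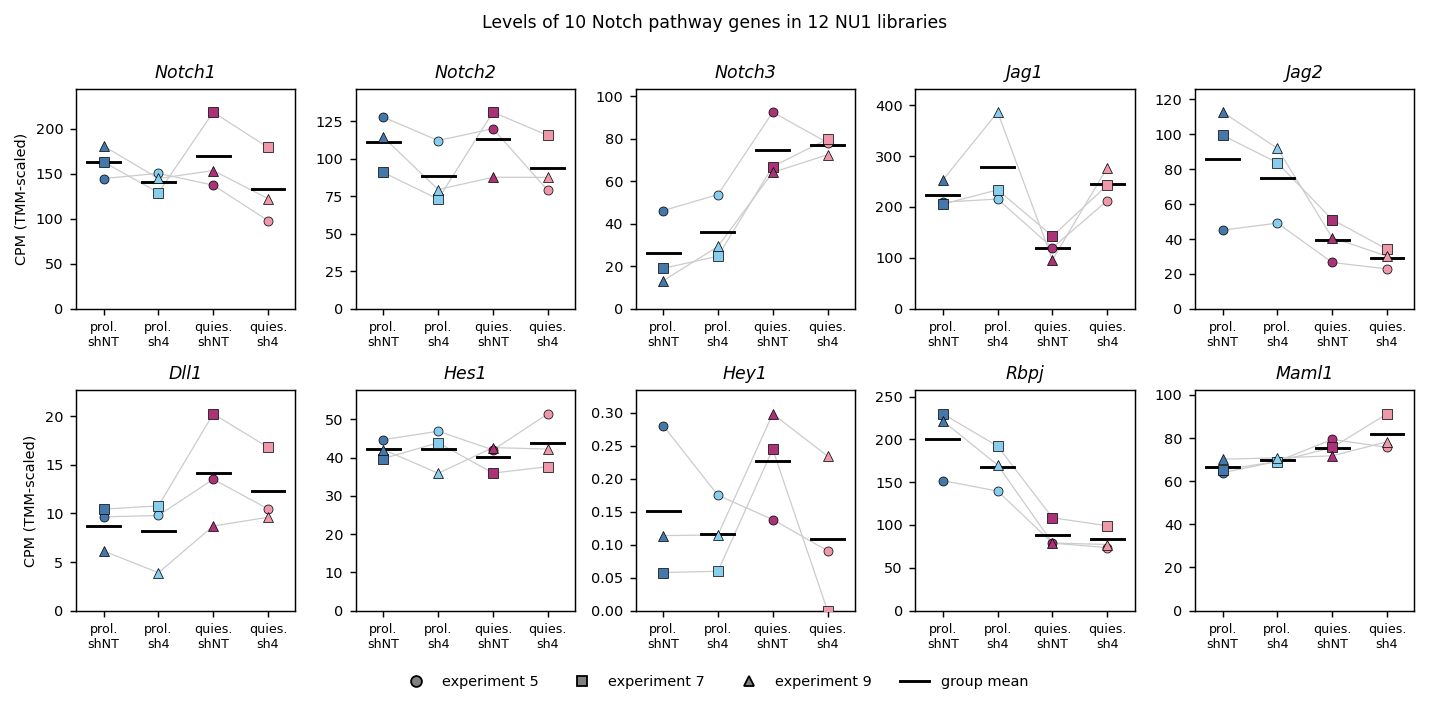
Levels of the 10 Notch pathway genes in each of the 12 libraries, in CPM on TMM-scaled totals, with a separate vertical axis from 0 for each gene. Symbols mark the experiment, grey lines join the libraries of 1 experiment, black bars are the means of 3 libraries, prol. and quies. stand for proliferating and quiescent, and shNT and sh4 are the control and the Stag2 hairpin. Rbpj and Notch3 separate the states with both hairpins, and Jag1 is lowest in the 3 quiescent control libraries.

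Levels of different genes were compared only after division by exon length, as CPM per kilobase of the merged exons of each gene. On that scale Jag1 ranked first of the 10 genes in every group, at 38.2 ± 4.52 CPM per kb in proliferating controls, 47.8 ± 16.1 in proliferating knockdown cells, 20.5 ± 3.99 in quiescent controls and 41.9 ± 5.55 in quiescent knockdown cells (SD, n = 3). Hes1 came second in every group, between 19.7 and 21.5 CPM per kb. The Jag1 and Hes1 means of 20.5 and 19.7 in quiescent controls lay within 1 SD of each other. Hey1 ranked last in all 4 groups. The choice of length matters most for Rbpj, whose longest transcript of 5485 bases is well short of its 12750 merged exon bases. With longest transcripts its level is 2.32 times higher. Rbpj then stands above Hes1 in both proliferating groups, at 36.6 and 28.7 CPM per kb in controls and 30.5 and 28.8 in knockdown cells. In quiescent controls Hes1 then stands above Jag1.

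The RefSeq table (GRCm38.p6) held promoter windows, from 250 bases before to 50 bases after a transcription start, for 8 of the 10 members. They were searched on both strands for TGGGAA, the core recognised by RBPJ, for CACNAG, the N-box bound by HES repressors, and for CACGCG, another HES-type site. A match of 1 pattern cannot be a match of another, but matches on the opposite strands can overlap. The 250 bases before the start are shown for the 3 members that passed the test between states in control cells and whose libraries there did not overlap, since these carry the main differences below. They read 5′ to 3′ in the direction of transcription, with the matches in capitals, at chr2:137116521-137116770 (minus strand) for Jag1, chr17:32166891-32167140 (minus strand) for Notch3 and chr5:53590096-53590345 (plus strand, the first of 2 Rbpj windows) for Rbpj.
Jag1: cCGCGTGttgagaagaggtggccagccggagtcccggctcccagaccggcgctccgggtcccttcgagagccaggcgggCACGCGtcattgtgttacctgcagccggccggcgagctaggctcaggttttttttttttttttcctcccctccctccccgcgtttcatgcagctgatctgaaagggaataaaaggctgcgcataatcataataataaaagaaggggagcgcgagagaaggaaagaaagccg
Notch3: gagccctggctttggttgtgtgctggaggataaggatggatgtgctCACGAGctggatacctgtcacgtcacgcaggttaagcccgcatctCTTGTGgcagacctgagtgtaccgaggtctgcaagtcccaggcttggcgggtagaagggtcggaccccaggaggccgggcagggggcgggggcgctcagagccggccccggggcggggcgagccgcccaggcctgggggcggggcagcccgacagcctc
Rbpj: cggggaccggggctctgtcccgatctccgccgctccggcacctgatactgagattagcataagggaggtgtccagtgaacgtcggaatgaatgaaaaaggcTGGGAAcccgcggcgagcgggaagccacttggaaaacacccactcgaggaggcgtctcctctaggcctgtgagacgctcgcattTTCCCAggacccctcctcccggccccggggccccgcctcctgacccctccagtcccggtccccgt
Rbpj was the 1 member of 8 with TGGGAA, which starts 149 bases before its start site on the strand shown, and again 65 bases before it on the opposite strand. Of all 32851 RefSeq windows of this length, 25.6% hold that core. CACNAG was in the windows of Notch1, Notch2, Notch3 and Dll1, and 42.5% of all windows hold it. CACGCG was in those of Jag1 (249 and 171 bases before the start), Jag2, Notch2 and Dll1, against 9.27% of all windows. The 8 members had 10 windows, with 2 each for Rbpj and Dll1. The members are counted per gene over all of its windows and the shares per window, so these are not like for like. These matches describe the letters only, and no binding was measured.

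The first question put to the data was what quiescence did to the pathway, in control and in knockdown cells. In control cells 4 of the 9 tested members passed the edgeR test at an adjusted p under 0.05, adjusted over all 12406 genes, against 20% of all tested genes. One was higher (8.33% of all genes) and 3 were lower (11.7% of all genes). The CPM ranges of the groups did not overlap for 4 of 9 members, against 35.6% of all genes. In knockdown cells 2 of 9 members passed, both lower, against 18.4% of all genes, 7.59% higher and 10.8% lower, and ranges did not overlap for 4 members, against 37.2%. With the experiment as a block the counts were 5 of 9 in control cells, 2 higher and 3 lower (35.3% of all genes, 16.8% higher and 18.5% lower), and 4 of 9 in knockdown cells, 2 in each direction (33% of all genes, 15.9% higher and 17.2% lower). The median fitted log2 fold change over the 9 members was 0.03 in control cells and 0.05 in knockdown cells, beside 0.0047 and 0.0045 over all tested genes.

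**Figure D2:**
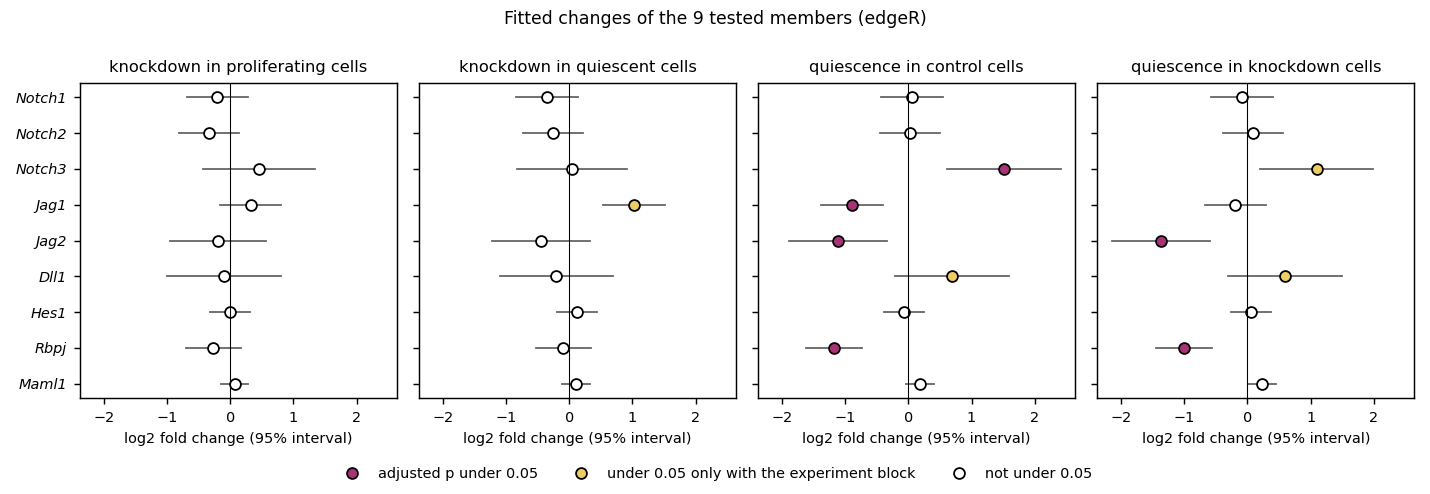
Fitted log2 fold changes (edgeR, no block) of the 9 tested members in the 4 comparisons, with lines for the 95% intervals and a vertical line at no change. Dark points have an adjusted p under 0.05, yellow points only with the experiment as a block; Rbpj and Jag2 lie left of 0 in both quiescence panels and Jag1 lies at 1.03 under knockdown in quiescent cells.

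Among the ligands, Jag1 (chr2:137081456-137116644, minus strand, GRCm38) was at 209, 206 and 253 CPM in the proliferating controls of experiments 5, 7 and 9, and at 120, 143 and 96.4 CPM in the quiescent controls. Every quiescent control library lay below every proliferating one. The fitted log2 fold change was -0.90 (SE 0.22, 95% interval -1.39 to -0.40, edgeR adjusted p = 0.0176), 1.86-fold lower, and Jag1 was lower in all 3 experiments. The call was kept in 9 of 12 fits that each left out a library. Without the proliferating control of experiment 9, or the quiescent control of experiment 5 or 9, it was lost, and the adjusted p over the 12 fits ran from 0.00471 to 0.0673. In knockdown cells Jag1 was at 216, 234 and 386 CPM when proliferating and at 212, 243 and 277 CPM when quiescent. These ranges overlap, and the change of -0.19 (SE 0.22, interval -0.68 to 0.30) did not pass (edgeR adjusted p = 0.589). The highest library of all, the proliferating knockdown of experiment 9, sets much of that group's SD of 93.7 CPM.

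Jag2, the other Jagged ligand (chr12:112907819-112929776, minus strand), was at 45.1, 99.4 and 113 CPM in proliferating controls and at 26.6, 51.1 and 40.8 CPM in quiescent controls. The ranges overlap because experiment 5 was low throughout, but within each experiment the quiescent library was the lower one. The fitted change was -1.12 (SE 0.35, interval -1.89 to -0.34, edgeR adjusted p = 0.0460). It passed in 2 of the 12 fits without a library, those without a proliferating library of experiment 5. It did not pass with the 6 libraries of the comparison alone, and had an adjusted p of 0.000587 with the block. In knockdown cells Jag2 was at 49.1, 83.7 and 92.0 CPM when proliferating and at 22.9, 34.2 and 30.2 CPM when quiescent. Here the groups did not overlap, with a change of -1.37 (SE 0.36, interval -2.15 to -0.59, edgeR adjusted p = 0.0225). That call was lost in 4 of 12 fits, those without the proliferating knockdown of experiment 7 or 9 or the quiescent knockdown of experiment 5 or 9.

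Dll1, a Delta-family ligand, was the scarcest of the 3 member ligands. It was at 9.65, 10.4 and 6.14 CPM in proliferating controls and 13.5, 20.3 and 8.71 CPM in quiescent controls, with experiment 9 lowest in each group. In knockdown cells it was at 9.79, 10.8 and 3.90 CPM when proliferating and 10.5, 16.8 and 9.61 CPM when quiescent. All 6 within-experiment differences between the states were upward, but the ranges overlapped with both hairpins. Neither change passed without the block (0.70, SE 0.41, edgeR adjusted p = 0.255 in controls, and 0.59, SE 0.41, adjusted p = 0.347 in knockdown cells). With the block both did, at 0.65 with adjusted p = 0.0317 and 0.65 with adjusted p = 0.0343. An opposite-strand RNA gene covers 20.6% of the Dll1 exon bases, and whether the counting used strand is not given in the sources used here.

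Among the receptors, Notch3 (chr17:32120820-32166852, minus strand) was the one that passed the test. It was at 46.2, 19.0 and 13.2 CPM in proliferating controls and at 92.5, 66.9 and 64.2 CPM in quiescent controls. The lowest quiescent library stood above the highest proliferating one, and experiment 5 was the highest in both groups. The fitted change was 1.51 (SE 0.41, interval 0.61 to 2.41, edgeR adjusted p = 0.0253), and the within-experiment differences were 1.00, 1.81 and 2.27 on the log2 scale. The call was kept in 9 of 12 fits without a library. It was lost without the proliferating control of experiment 7 or 9 or the quiescent control of experiment 5, and with the 6 libraries of the comparison alone, while the change ran from 1.19 to 2.21.

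With the Stag2 hairpin Notch3 was at 53.7, 24.7 and 29.3 CPM in proliferating cells and at 78.2, 79.9 and 72.4 CPM in quiescent cells. These groups did not overlap either. The change of 1.10 (SE 0.41, interval 0.21 to 1.99, 2.14-fold) missed the threshold without the block (edgeR adjusted p = 0.0847) and passed with it (1.20 on the log2 scale, adjusted p = 0.00621). It also passed with DESeq2, with the 6 libraries of the comparison alone, and in 3 of 12 edgeR fits without a library, those without the proliferating control of experiment 5 or 9 or the proliferating knockdown of experiment 5. The difference between the 2 hairpins in this change, -0.41 (SE 0.57), did not pass (edgeR adjusted p = 1.000).

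Notch1 and Notch2, the receptors with the higher read counts, showed no such separation. Notch1 was at 145, 163 and 181 CPM in proliferating controls, 137, 218 and 153 CPM in quiescent controls, 150, 129 and 145 CPM in proliferating knockdown cells and 97.9, 179 and 122 CPM in quiescent knockdown cells. Notch2 was at 128, 90.9 and 114 CPM, 120, 131 and 87.7 CPM, 112, 73.1 and 79.5 CPM, and 79.0, 116 and 87.7 CPM in the same order of groups. All 4 ranges overlap for each receptor, and the quiescent libraries of experiment 7 are the high ones. The changes with quiescence were 0.06 and -0.09 for Notch1 (95% intervals -0.43 to 0.55 and -0.57 to 0.40) and 0.03 and 0.09 for Notch2 (-0.45 to 0.50 and -0.38 to 0.57), in control and knockdown cells. Both genes have long transcripts. The median deviation of genes with over 10000 exon bases, less that of genes with under 2000, ran from -0.34 in the quiescent knockdown library of experiment 5 to 0.28 in that of experiment 7 on the log2 scale. Those are also the lowest and the highest quiescent knockdown library for both receptors. The part of this in the result was not tested.

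Of the nuclear partners, Rbpj (chr5:53466152-53657362, plus strand), which encodes the DNA-binding protein through which all Notch receptors act, gave the steadiest change. It was at 152, 230 and 221 CPM in proliferating controls and at 78.7, 108 and 79.0 CPM in quiescent controls. The groups were well apart, with the highest quiescent library below the lowest proliferating one. The change was -1.18 (SE 0.20, interval -1.62 to -0.74, edgeR adjusted p = 0.00250). In knockdown cells Rbpj was at 140, 192 and 170 CPM when proliferating and at 73.6, 99.1 and 77.2 CPM when quiescent, again without overlap. That change was -1.01 (SE 0.20, interval -1.45 to -0.56, edgeR adjusted p = 0.00638), 2.01-fold lower. Both calls were kept in all 12 fits without a library, with changes of -1.35 to -1.07 in controls and -1.14 to -0.90 in knockdown cells. The proliferation markers fell in the same libraries, and their part in the fall of Rbpj and Jag2 was not tested.

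Maml1, the co-activator, stayed close to 1 level. It was at 63.9, 65.2 and 70.2 CPM in proliferating controls, 79.4, 75.6 and 71.7 CPM in quiescent controls, 69.2, 69.1 and 70.8 CPM in proliferating knockdown cells and 75.7, 91.2 and 78.3 CPM in quiescent knockdown cells. The quiescent libraries were above the proliferating ones with each hairpin, with no overlap, but the changes were small: 0.19 (SE 0.10, edgeR adjusted p = 0.214) and 0.23 (SE 0.10, edgeR adjusted p = 0.137).

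Neither target gene gave a call. Hes1 (chr16:30064384-30067796, plus strand), a repressor gene switched on by Notch in many tissues, was at 44.7, 39.8 and 42.1 CPM in proliferating controls and 42.0, 36.0 and 42.6 CPM in quiescent controls. In knockdown cells it was at 46.9, 43.9 and 35.9 CPM when proliferating and 51.5, 37.6 and 42.2 CPM when quiescent. All 4 groups overlap. The changes with quiescence were -0.07 (SE 0.15, interval -0.39 to 0.25, edgeR adjusted p = 0.774) and 0.05 (SE 0.15, interval -0.27 to 0.37, edgeR adjusted p = 0.837). Hey1, another repressor of this group, had 31 counts over all 12 libraries and at most 0.298 CPM in any. It was not tested, and its levels of 0 to 5 counts per library do not allow groups to be compared at this depth.

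The order of the group means follows from these values. For Notch3 the quiescent groups (76.8 ± 3.89 CPM with the Stag2 hairpin, 74.5 ± 15.6 with the control hairpin) overlapped each other and stood apart from the proliferating groups (35.9 ± 15.6 and 26.1 ± 17.6), which also overlapped. For Rbpj the order was reversed, with 201.0 ± 42.8 and 167 ± 26.3 CPM in proliferating control and knockdown cells and 88.7 ± 17.1 and 83.3 ± 13.8 CPM in the quiescent ones. For Jag1 the break lay elsewhere. Quiescent controls at 119.7 ± 23.2 CPM were apart from the other 3 groups, which overlapped their neighbours at 223 ± 26.3, 244 ± 32.3 and 278 ± 93.7 CPM (proliferating control, quiescent knockdown and proliferating knockdown). Maml1 also broke between the states, with quiescent groups at 81.7 ± 8.31 and 75.6 ± 3.81 CPM above proliferating ones at 69.7 ± 0.963 and 66.4 ± 3.31 CPM. For Notch1, Notch2, Jag2, Dll1, Hes1 and Hey1 each group overlapped the next in order.

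The second question was what the Stag2 hairpin did in each state. In proliferating cells 0 of 9 members passed the edgeR test, against 0.0242% of all tested genes. Of the 9, 0 had an unadjusted p under 0.05 (228 of all 12406 genes), and DESeq2 called 0 (12 of all 12406). No pair of groups was free of overlap, against 5.31% of all genes. The fitted changes ran from -0.33 for Notch2 (SE 0.22, interval -0.81 to 0.14) to 0.46 for Notch3 (SE 0.41, interval -0.43 to 1.35). Jag1 changed by 0.32 (SE 0.22, interval -0.17 to 0.81), Rbpj by -0.27 (SE 0.20, interval -0.70 to 0.17) and Notch1 by -0.20 (SE 0.22, interval -0.69 to 0.28), and all edgeR adjusted p-values were 1.000. The median over the 9 members was -0.10, beside -0.0022 over all genes.

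In quiescent cells 0 of 9 members passed the edgeR test, against 0.435% of all tested genes. Of the 9, 1, Jag1, had an unadjusted p under 0.05, against 1489 of all 12406 genes. With the experiment as a block 1 member passed, against 3.55% of all genes (1.59% higher and 1.96% lower), and DESeq2 called 1, against 387 of all 12406 genes. Jag1 was at 120, 143 and 96.4 CPM in the quiescent controls of experiments 5, 7 and 9 and at 212, 243 and 277 CPM in the quiescent knockdown libraries. Every knockdown library was above every control library. Jag1 was the 1 member of 9 without overlap, against 19.1% of all genes. The log2 fold change was 1.03 (SE 0.23, interval 0.53 to 1.52) with an edgeR adjusted p of 0.0807, and 1.00 with an adjusted p of 0.0270 with the block. The differences within experiments were 0.82, 0.77 and 1.52 on the log2 scale. Leaving out 1 library at a time moved the change between 0.89 and 1.17, and the adjusted p was under 0.05 in 1 of 12 such fits, without the proliferating knockdown of experiment 9.

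This comparison and the fall of Jag1 in quiescent controls share the same 3 quiescent control libraries, so the pair of values is not independent. The test of whether the hairpin acted differently in the 2 states gave 0.71 for Jag1 (SE 0.32, interval 0.01 to 1.40) with an unadjusted p of 0.0461 and an edgeR adjusted p of 1.000. In that test 0 of the 9 members passed, against 0% of all tested genes. Of the 9, 1 had an unadjusted p under 0.05 (219 of all 12406 genes), and DESeq2 called 0 (6 of all 12406). Whether quiescence lowered Jag1 more in control than in knockdown cells is thus not settled by these libraries. Csf1r, which had the highest level among the leukocyte markers, was also highest in the quiescent knockdown libraries, at 108, 104 and 163 CPM against 34.1, 59.7 and 32.3 CPM in quiescent controls. Like Jag1, Csf1r passed between hairpins with the block alone (1.63, edgeR adjusted p = 0.0385, against 1.57 and 0.128 without it). In the same list Ptprc reached 0.408 CPM and Cd3e and Adgre1 were at 0. The 14 urothelial and epithelial markers summed to 22024 to 23471 CPM in quiescent knockdown and 12875 to 19396 CPM in quiescent control libraries. Krt8 and Krt18 weigh heavily in these sums, reaching 9042 and 6508 CPM. Of 11 tested, 0 passed the edgeR test between hairpins, and 1 had an unadjusted p under 0.05 (1489 of all 12406 genes). With the block 0 passed, and 7 had an unadjusted p under 0.05 (2527 of all 12406 genes). Without it the fitted changes of the 11 ran from -0.56 for Cdh1, lower in all 3 experiments without overlap, to 1.49 for the scarce Upk2, with a median of 0.52. The 7 proliferation markers summed to 113 to 222 CPM in quiescent knockdown and 85.0 to 129 CPM in quiescent control libraries, which overlap. Between these groups 0 of the 7 passed the edgeR test (3 at an unadjusted p under 0.05). With the block 0 passed, and 5 had an unadjusted p under 0.05. Without it the fitted changes of the 7 ran from -0.13 for Pcna to 1.92 for Mki67, with a median of 0.81. The part of these in the Jag1 result was not tested.

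The remaining members showed smaller differences between hairpins in quiescent cells, each with overlapping ranges. Jag2 changed by -0.44 (SE 0.35, interval -1.22 to 0.33), Notch1 by -0.35 (SE 0.22, interval -0.84 to 0.14), Notch2 by -0.26 (SE 0.22, interval -0.74 to 0.21) and Dll1 by -0.20 (SE 0.41, interval -1.10 to 0.69). Notch1 and Jag2 were each lower in the knockdown library in all 3 experiments. For Notch2 and Rbpj the differences in experiment 9 were close to 0, at -0.0011 and -0.033 on the log2 scale, and both were lower in experiments 5 and 7. Hes1 changed by 0.12 (SE 0.15, interval -0.20 to 0.44), Maml1 by 0.11 (SE 0.10), Notch3 by 0.04 (SE 0.40) and Rbpj by -0.09 (SE 0.20, interval -0.53 to 0.35). Their edgeR adjusted p-values were between 0.597 and 0.980.

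The makeup of the receptor transcripts was described by shares. Notch3 made up 20.6, 10.6 and 6.54% of the CPM per kb of the 3 receptors in the proliferating controls of experiments 5, 7 and 9, and 35.5, 23.1 and 29.5% in the quiescent controls. With the Stag2 hairpin it made up 24.1, 16.2 and 17.1% in proliferating cells and 40.5, 29.8 and 34.9% in quiescent cells. The states did not overlap with either hairpin. The means were 12.6 ± 7.23% against 29.4 ± 6.18% and 19.1 ± 4.30% against 35.0 ± 5.36% (SD, n = 3). Each difference had a two-sided exact permutation p of 0.1, the smallest that 3 libraries against 3 allow when exchanged freely. The Benjamini-Hochberg adjusted p was 0.246 over the 32 comparisons of shares and sums. This permutation did not use the pairing by experiment. The summed receptor level overlapped between all groups compared, with means of 25.0, 22.6, 31.6 and 27.6 CPM per kb in proliferating control, proliferating knockdown, quiescent control and quiescent knockdown cells.

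Jag1 was the main ligand transcript in every library, at 66.9 to 87.8% of the CPM per kb of the 3 ligands. Its share was 74.6, 66.9 and 67.6% in quiescent controls and 86.3, 82.4 and 87.8% in quiescent knockdown cells, without overlap. In the same libraries the Jag2 share was 19.3 ± 5.10% and 8.49 ± 1.05%, and that of Dll1 was 11.0 ± 2.38% and 5.99 ± 1.84%. The summed ligand level was 52.6 ± 8.19 CPM per kb in proliferating controls, 29.6 ± 6.34 in quiescent controls and 49.0 ± 6.13 in quiescent knockdown cells. Quiescent controls did not overlap either of the other two (exact permutation p = 0.1, adjusted 0.246, for each). Proliferating knockdown cells were at 60.5 ± 17.7 CPM per kb, and overlapped both proliferating controls (exact permutation p = 0.6) and quiescent knockdown cells (p = 0.4).

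**Figure D3:**
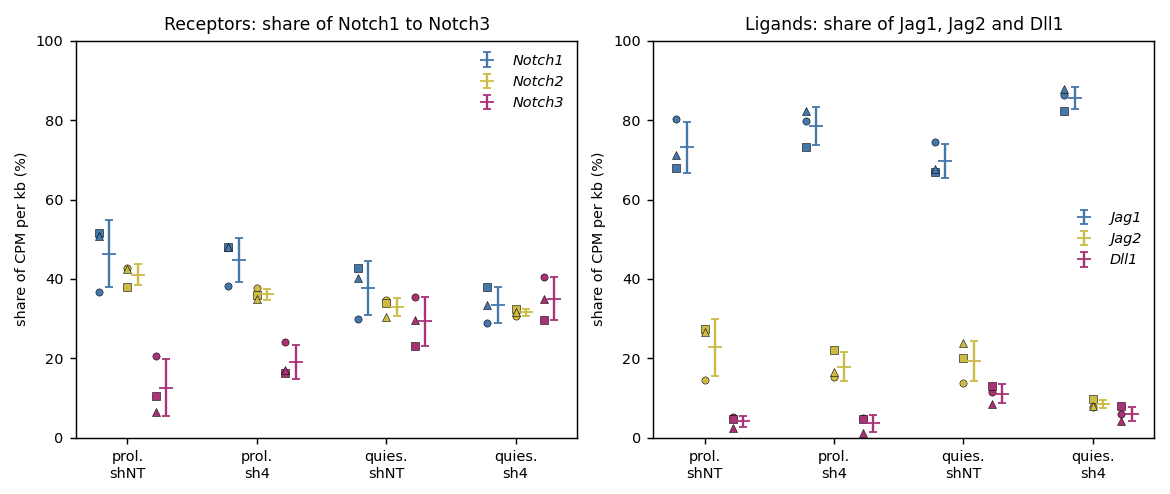
Shares of each receptor gene among Notch1 to Notch3 and of each ligand gene among Jag1, Jag2 and Dll1, in percent of their summed CPM per kb of merged exons, for the 4 groups. Symbols are single libraries (circle, square and triangle for experiments 5, 7 and 9), and dashes with bars are means and SD of 3 libraries; the Notch3 share has a mean of 12.6% in proliferating and 29.4% in quiescent controls.

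The other genes of the pathway were read from 8 lists with 56 genes, of which 47 were tested. In quiescent against proliferating controls 2 of the 47 rose and 3 fell, against 8.33% and 11.7% of all tested genes. In knockdown cells 4 rose and 3 fell, against 7.59% and 10.8% of all tested genes. With the block 8 rose and 4 fell in controls (16.8% and 18.5% of all genes), and 6 rose and 5 fell in knockdown cells (15.9% and 17.2%). The genes that passed with the block alone are named for that reason. In controls these were Ncstn and Aph1b, subunits of gamma-secretase, with changes of 0.38 and 1.14 (edgeR adjusted p = 0.0456 and 0.0105 with the block), L3mbtl3 at 0.54 (adjusted p = 0.0331), and the genes Neurl1a, Kat2b, Hes6 and Hdac1 given below with their lists. In knockdown cells they were Kat2b, Hes6, Maml2 and Dlk2. The median change over the 47 without the block was 0.15 in control cells and 0.05 in knockdown cells, beside 0.0047 and 0.0045 over all tested genes. Dll3, Dlk1, Mfng, Hes2, Hes5, Hey2 and Heyl had too few reads for the test, and Dtx1 and Hes3 had no count.

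Nrarp, a feedback inhibitor that is itself induced by Notch and that marks the intracellular domain for breakdown, fell more than any other of the 47 genes except the scarce Dlk2 and, in controls, Neurl1b. It was at 65.5, 66.1 and 111 CPM in proliferating controls and at 6.76, 9.30 and 15.1 CPM in quiescent controls. With the Stag2 hairpin it was at 61.8, 71.6 and 105 CPM when proliferating and 5.53, 13.8 and 11.4 CPM when quiescent. Quiescent libraries lay far below all proliferating ones, 7.77-fold lower in controls (edgeR adjusted p = 0.000601) and 7.78-fold lower in knockdown cells (adjusted p = 0.000967). Both calls were kept in all 12 fits without a library. An antisense gene covers 79.4% of the Nrarp exon bases, so its reads could belong to either if strand was not used. Of the other 7 genes in the list of HES, HEY and feedback genes, Hes6 and Hes7 were tested and did not pass without the block. With it Hes6 rose by 0.41 in controls (edgeR adjusted p = 0.0256) and by 0.47 in knockdown cells (adjusted p = 0.0147).

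Among the 4 E3 ligase genes that act on ligands, Mib2 rose with quiescence by 0.76 (SE 0.13, edgeR adjusted p = 0.00267) in controls, from 23.0 ± 1.97 to 38.9 ± 2.58 CPM, and by 0.78 (SE 0.13, adjusted p = 0.00264) in knockdown cells. Neurl1b fell in both, with log2 changes of -3.63 (SE 0.67, edgeR adjusted p = 0.00381) and -1.99 (SE 0.57, adjusted p = 0.0340). It is scarce, with 2, 4 and 3 counts in the quiescent controls. Neurl1a rose in knockdown cells by 2.87 (SE 0.77, edgeR adjusted p = 0.0257), from 0.406 ± 0.204 to 3.02 ± 1.28 CPM, and missed the threshold in controls (1.81, adjusted p = 0.111), where it passed with the block (1.90, adjusted p = 0.00947). The Neurl1b call in knockdown cells was lost in 5 of 12 fits, without the proliferating knockdown of experiment 7 or 9 or any 1 quiescent knockdown library, and with the libraries of the comparison alone. The Neurl1a call was lost in 4, without any 1 proliferating knockdown library or the quiescent knockdown of experiment 9.

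Of 8 tested genes of receptor trafficking and turnover, Dtx3, a Deltex-family ligase gene, rose in controls by 0.91 (SE 0.14, edgeR adjusted p = 0.00120) and in knockdown cells by 0.90 (SE 0.14, adjusted p = 0.00168). It went from 34.8 ± 1.53 to 65.5 ± 9.92 CPM and from 42.8 ± 4.82 to 79.9 ± 8.33 CPM. Psen2, a catalytic subunit of gamma-secretase, rose in knockdown cells by 0.63 (SE 0.15, edgeR adjusted p = 0.0150), and Hdac1, a co-repressor deacetylase, fell there (-0.49, SE 0.13, adjusted p = 0.0236). In controls Hdac1 passed with the block alone (-0.39, edgeR adjusted p = 0.0101, against 0.0521 without it). Dlk2, a non-canonical ligand, fell in controls (edgeR adjusted p = 0.0274) on few reads, with 2, 37 and 18 counts in proliferating and 0, 0 and 1 in quiescent libraries. In knockdown cells it passed with the block alone (edgeR adjusted p = 0.0104, against 0.0504 without it), on 3, 13 and 4 counts in proliferating and 0 in every quiescent library. The Psen2 call was lost without the proliferating knockdown of experiment 9 or the quiescent knockdown of experiment 5. That of Hdac1 was lost without the proliferating knockdown of experiment 5 or 7 or the quiescent one of experiment 7 or 9, and that of Dlk2 without the proliferating control of experiment 7 or 9 or any 1 quiescent control. None of 4 tested genes of receptor glycosylation and none of 7 nuclear co-activators passed in either comparison without the block, with 0 and 1 at an unadjusted p under 0.05 in controls and 0 and 2 in knockdown cells. DESeq2 called 0 and 0 in controls, and 0 and 1 (lower) in knockdown cells. Of all 12406 tested genes, 4314 in controls and 4089 in knockdown cells had an unadjusted p under 0.05. DESeq2 called 3219 and 2990 of them. With the block the co-activator Kat2b rose by 0.71 in controls (edgeR adjusted p = 0.0167) and by 0.65 in knockdown cells (adjusted p = 0.0251), and Maml2, a second Mastermind gene, passed in knockdown cells at -0.71 (adjusted p = 0.0300).

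**Figure D4:**
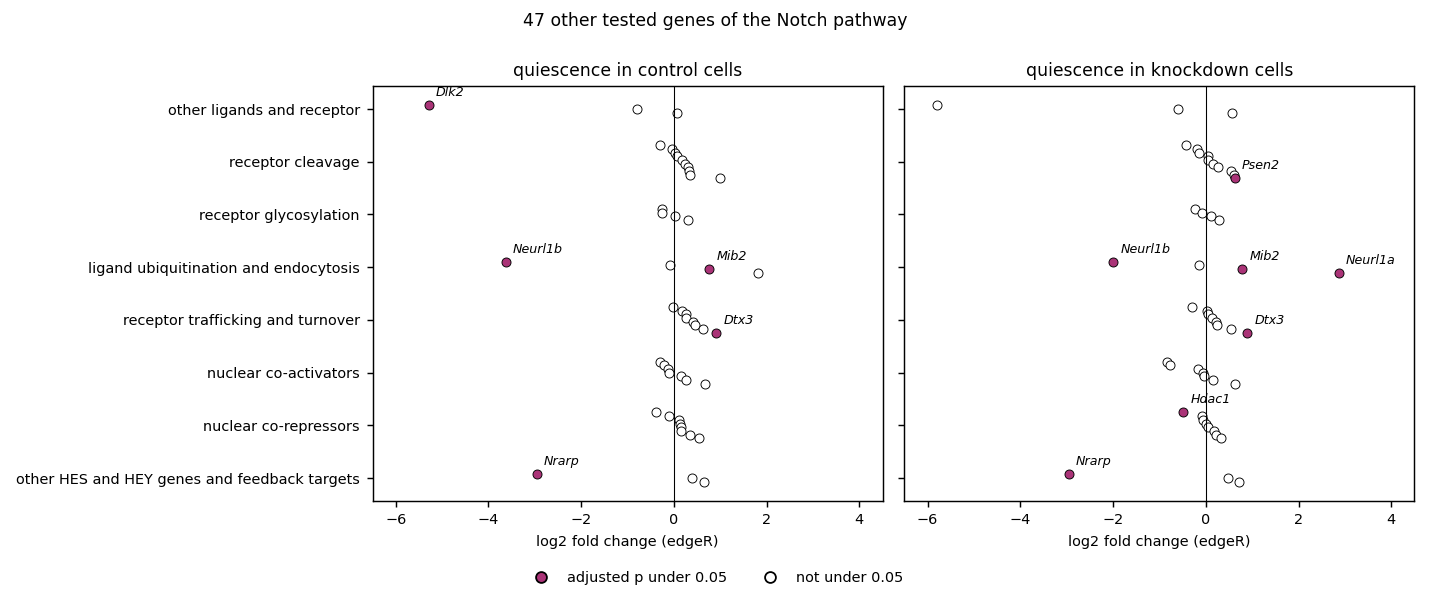
Fitted log2 fold changes (edgeR, no block) with quiescence of the 47 other tested pathway genes, in 8 rows by role, for control and knockdown cells. Filled points have an adjusted p under 0.05 and are named; Nrarp and Neurl1b lie to the left and Mib2 and Dtx3 to the right in both panels, and the far-left point of Dlk2 rests on libraries at or near 0 counts.

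Between hairpins 0 of the 47 genes passed the edgeR test in proliferating cells, against 0.0242% of all tested genes. Of the 47, 0 had an unadjusted p under 0.05 there (228 of all 12406 genes), and DESeq2 called 0 (12 of all 12406). In quiescent cells 0 passed, against 0.435% of all tested genes, with 7 at an unadjusted p under 0.05 (1489 of all 12406 genes). DESeq2 called 1 higher and 1 lower there (387 of all 12406). With the block 1 gene passed, against 3.55% of all genes. This was Adam10, which encodes a protease that makes the first activating cut in Notch receptors and which is named because of this value. It was at 311, 207 and 206 CPM in quiescent controls and 108, 112 and 102 CPM in quiescent knockdown cells, with no overlap. The change was -1.17 (SE 0.36, edgeR adjusted p = 0.209) without the block and -1.11 (adjusted p = 0.0232) with it. In proliferating cells Adam10 was at 278, 170 and 127 CPM with the control hairpin and 233, 109 and 89.3 CPM with the Stag2 hairpin, which overlap. The test of the difference between states gave -0.75 (SE 0.50, edgeR adjusted p = 1.000).

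For the 4 members that passed a test, the genes most alike over the 12 libraries were found by the root mean square difference of their centred log2 CPM. The nearest to Notch3 were Cldn23 (0.22) and Trim7 (0.23), and to Jag1 2310061C15Rik (0.22) and Sfxn2 (0.26). The nearest to Jag2 were Mthfd1 (0.18) and Pabpc4 (0.19), and to Rbpj Myo19 (0.12) and Hmgn2 (0.12). For comparison, the members' own SD over the 12 libraries was 0.92 for Notch3, 0.55 for Jag1, 0.78 for Jag2 and 0.62 for Rbpj on the same scale. With Pearson's r as the measure, Mthfd1 stayed the nearest gene to Jag2 (r = 0.98, across 12 libraries in 4 groups, a description only), and the other 3 members had none of these genes among their nearest pair.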

How the data were processed

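RNA from NU1 cells was sequenced as stranded poly(A) libraries with ERCC spike-ins, per the labels' protocols. The deposited table holds raw read counts per gene symbol for 12 libraries. Per the submitters' processing notes the build was mm10 and the tools were Bowtie, TopHat, HTSeq and DESeq2, with no versions; the annotation and whether counting used strand are not given in the sources used here. All 12 columns were mapped to samples by name. The labels do not say whether experiments used separate transductions, so p-values measure the spread between these libraries. The libraries of a group differed well beyond sampling noise (chi-square per degree of freedom 36.6 to 99.7).

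Counts were scaled by TMM and tested with edgeR 4.0.16 (R 4.3.3; filterByExpr with a minimum count of 10, glmQLFit and glmQLFTest, 4 group means, all 12 libraries) on 12406 genes, with Benjamini-Hochberg adjustment over all of them and a threshold of 0.05. The tests were checked on simulated counts, where DESeq2 made a larger share of false calls than edgeR. Those counts had the same spread setting for every gene and no difference between experiments. They therefore do not show how often either test is wrong on these libraries. Shares and sums were compared by exact permutation over libraries, without regard to the experiment. Alternatives were the experiment as a block, RLE scaling, DESeq2 1.42.0, other low-count filters, the libraries of a comparison alone, each library left out, and longest transcripts. The experiment number is also the labelled batch. Libraries of the same experiment deviated together from their group means (mean r = 0.53, 0.23 to 0.79 over 18 pairs, against -0.26 over 36 other pairs), so the block is a pairing and its values stand beside results it changes.

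Exon lengths and overlaps came from GENCODE M21 (GRCm38), matched by symbol. All 10 members are described whatever their values. Other pathway genes are named with values where they passed the main test, and the rest only as counts, except those that passed with the block alone, Adam10 among them, chosen after their values were seen. The members and lists were chosen with earlier results of these data known. One cell type marker is not reported here.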

Additional observations from a re-analysis of the deposited data

How the results depend on the processing

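The 9 tested members had 2228 to 45274 reads over the 12 libraries, and each group had 3 libraries. Under the replicate block the number of members called was 1 for knockdown in quiescent cells (0 without it) and 4 for quiescence in knockdown cells (2 without it), through Jag1, Notch3 and Dll1. It also brought in Dll1 for quiescence in controls, and the block changed no other call of a member. DESeq2 called 1 member for knockdown in quiescent cells, and the 6 libraries of the comparison alone gave 2 of the 4 calls for quiescence in controls. Leaving out 1 library gave 0 to 1 calls for knockdown in quiescent cells, 1 to 4 for quiescence in controls and 1 to 3 for quiescence in knockdown cells. The cause was not tested beyond the smaller number of libraries.

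Over all genes the block raised the calls from 54 to 440 for knockdown in quiescent cells, from 2481 to 4374 for quiescence in controls and from 2279 to 4096 in knockdown cells. DESeq2 gave 12 against 3 for knockdown in proliferating cells and 387 for knockdown in quiescent cells. The libraries of the comparison alone gave 1 and 1582 for knockdown in proliferating cells and quiescence in controls, and leaving out 1 library gave as few as 5 for knockdown in quiescent cells.

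Signs turned for values that passed in none of these fits. Not all of them were near 0: the main fit gave -0.25 for the Jag2 interaction. It gave -0.20 for Dll1 under knockdown in quiescent cells. Hes1 under knockdown in proliferating cells went to -0.0043 with RLE scaling, -0.0044 with DESeq2 and -0.0038 with no filter, and the Dll1 interaction to 0.00042 with the block. Leaving out 1 library, the log2 values ran as follows. Under knockdown in proliferating cells they were -0.50 to 0.052 for Jag2, -0.35 to 0.23 for Dll1 and -0.081 to 0.099 for Hes1. Under knockdown in quiescent cells they were -0.054 to 0.22 for Notch3, -0.49 to 0.14 for Dll1, -0.012 to 0.22 for Hes1 and -0.23 to 0.073 for Rbpj. For quiescence in controls they were -0.15 to 0.20 for Notch1, -0.10 to 0.18 for Notch2 and -0.11 to 0.015 for Hes1. For quiescence in knockdown cells they were -0.35 to 0.091 for Notch1, -0.072 to 0.30 for Notch2, -0.35 to 0.12 for Jag1 and -0.083 to 0.16 for Hes1. For the interaction they were -0.42 to 0.073 for Notch1, -0.10 to 0.28 for Notch2, -0.50 to 0.055 for Jag2, -0.44 to 0.24 for Dll1, -0.013 to 0.22 for Hes1 and -0.039 to 0.095 for Maml1. Of the values for single genes, 966 kept direction and side of the threshold, 43 lost it, 13 gained it and 44 changed sign. With longest transcripts 31 of 72 levels and shares moved by over 1 SD. Leaving out a library moved 0 of 216 by that much. In groups this small, leaving out 1 library cannot move the group's mean by 1 SD. The count of 0 therefore does not show whether the levels and shares depend on single libraries.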
